A study of Mus musculus with 20 samples.

Results

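The cartilage collagens of types II, IX and XI are encoded by 6 genes, Col2a1, Col9a1, Col9a2, Col9a3, Col11a1 and Col11a2, whose transcripts were followed through the phalanges, the bony segments of the digits, of mouse embryos. The genes were taken by symbol from the deposited count tables, where each was present as a single row at both stages, and all 6 of the 23991 genes found at both stages passed the filter on low counts. The libraries were made from whole phalanges at embryonic day 17 (E17, 10 libraries, each a pool of 10 embryos) and embryonic day 16 (E16, 10 libraries, each a pool of 20 embryos). At each stage there was 1 library per limb, hindlimb or forelimb, for each of 5 elements. Digit 1 gave a distal and a proximal element, and digit 2 gave a middle element as well. No strain or genotype is given in the labels, and no treatment separated the groups. Total counts per library were 75278309 to 111204552 at E17 and 70871735 to 77361898 at E16.

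Collagen II is the main fibril-forming collagen of cartilage and is built from the product of Col2a1 alone. Collagen IX lies on the surface of these fibrils and joins the products of Col9a1, Col9a2 and Col9a3. Collagen XI sits in the fibril core and limits fibril width; its own chains come from Col11a1 and Col11a2, and its remaining chain is a further modified product of Col2a1. In the embryonic digit the phalanges are laid down as cartilage under the control of SOX9 with SOX5 and SOX6, and the cartilage is later replaced by bone. Col11a1 is also known to be transcribed outside cartilage, for example in developing tendon and bone.

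The libraries held chondrocytes among other tissues. All 9 chondrocyte markers examined (Sox9, Sox5, Sox6, Acan, Matn1, Matn3, Hapln1, Cnmd and Snorc) were present, and none was at 0 throughout a stage, limb or position. Their summed level was 101 to 147 CPM, counts scaled to library depth (median 130), in E17 libraries and 179 to 416 CPM (median 289) in E16 libraries, with no overlap. Marker sums here and below are scaled by total counts alone. Since these are bulk libraries, fewer chondrocytes and less of a transcript in each chondrocyte cannot be told apart.

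Levels of the genes were compared per kilobase of their longest coding transcript, as CPM scaled by trimmed mean of M values (TMM) factors and divided by length. At E17 the order was Col2a1 (25.7 ± 8.69 CPM per kb, SD, n = 10), Col11a1 (20.0 ± 10.4), Col9a3 (9.87 ± 2.72), Col9a2 (9.23 ± 5.74), Col9a1 (6.23 ± 1.90) and Col11a2 (5.68 ± 3.51). No neighbours in that order differed by more than the larger of their SDs. At E16 the order was Col2a1 (91.3 ± 42.1 CPM per kb, SD, n = 10), Col11a1 (30.4 ± 14.4), Col9a1 (22.2 ± 9.96), Col9a3 (19.6 ± 8.87), Col9a2 (16.6 ± 10.7) and Col11a2 (9.17 ± 5.39). There only Col2a1 stood above its neighbour by more than the spread, and it was above Col11a1 in 10 of 10 libraries. Col9a1 thus had rank 5 at E17 and rank 3 at E16, though its neighbours lay within the spread at both stages. The SDs span elements and limbs as well as any replicate error.

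**Figure D1:**
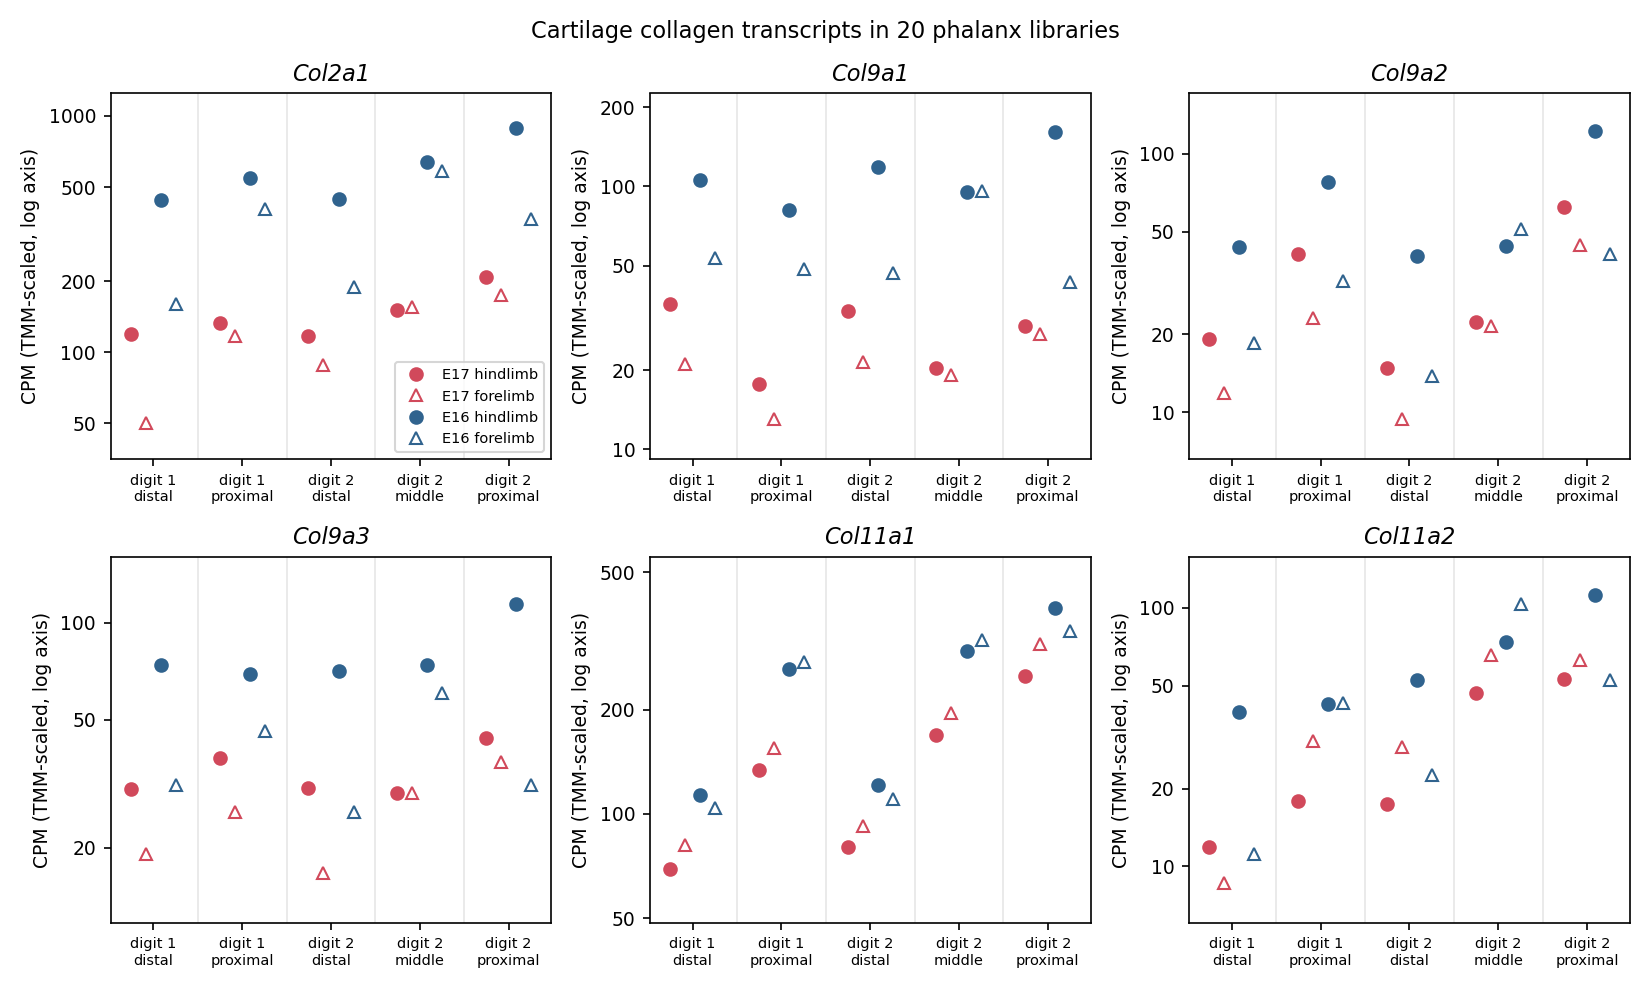
TMM-scaled CPM (log axis) of the 6 genes in each of the 20 libraries, by element; red marks E17 and blue E16, filled circles hindlimb and open triangles forelimb, and each point is 1 library. E17 points lie below E16 points throughout for Col2a1, Col9a1 and Col11a1 when element and limb are matched, and distal points are the lowest for Col11a1, at 69.2 to 121 CPM.

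The library of the E16 hindlimb digit 2 proximal phalanx held the highest level of all 6 genes (Col2a1 889, Col9a1 161, Col9a2 122, Col9a3 114, Col11a1 395 and Col11a2 112 CPM). The ratio of the highest to the lowest library was 17.7 for Col2a1, 12.3 for Col9a1, 12.97 for Col9a2 and 6.85 for Col9a3. It was 5.70 for Col11a1, the least of the 6, and 13.02 for Col11a2. The lowest library of each gene was an E17 library, distal for every gene except Col9a1, whose minimum of 13.1 CPM was in the forelimb digit 1 proximal phalanx.

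The sequence around the start of transcription is shown, as a description, for the genes found in the RefSeq promoter table (build GRCm38.p6). Of the 6 genes 4 matched. Col9a1 has 2 starts in the table, of which the first is printed, and the gene counts do not separate them. Each stretch is 300 bases on the plus strand, running 5′ to 3′ through the annotated start (Col9a1 chr1:24177360-24177659, Col9a2 chr4:121039316-121039615, Col11a1 chr3:114030290-114030589, Col11a2 chr17:34038888-34039187), and capitals mark matches to TATAAA or GGGCGG on either strand.
Col9a1: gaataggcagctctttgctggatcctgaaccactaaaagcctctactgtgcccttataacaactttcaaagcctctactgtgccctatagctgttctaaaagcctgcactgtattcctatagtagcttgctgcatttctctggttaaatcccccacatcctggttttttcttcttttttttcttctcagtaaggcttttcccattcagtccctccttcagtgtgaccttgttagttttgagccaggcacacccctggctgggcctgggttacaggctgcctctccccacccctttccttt
Col9a2: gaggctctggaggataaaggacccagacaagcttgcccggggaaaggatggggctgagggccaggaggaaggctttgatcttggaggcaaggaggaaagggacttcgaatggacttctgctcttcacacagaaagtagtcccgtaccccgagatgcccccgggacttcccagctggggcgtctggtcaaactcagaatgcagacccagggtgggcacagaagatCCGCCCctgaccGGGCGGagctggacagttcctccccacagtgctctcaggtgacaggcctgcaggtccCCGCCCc
Col11a1: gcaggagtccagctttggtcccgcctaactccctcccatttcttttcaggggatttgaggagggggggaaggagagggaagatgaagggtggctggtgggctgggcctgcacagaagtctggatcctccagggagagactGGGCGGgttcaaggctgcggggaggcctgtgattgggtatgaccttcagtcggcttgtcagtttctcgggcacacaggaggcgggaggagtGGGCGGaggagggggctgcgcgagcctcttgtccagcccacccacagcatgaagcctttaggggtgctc
Col11a2: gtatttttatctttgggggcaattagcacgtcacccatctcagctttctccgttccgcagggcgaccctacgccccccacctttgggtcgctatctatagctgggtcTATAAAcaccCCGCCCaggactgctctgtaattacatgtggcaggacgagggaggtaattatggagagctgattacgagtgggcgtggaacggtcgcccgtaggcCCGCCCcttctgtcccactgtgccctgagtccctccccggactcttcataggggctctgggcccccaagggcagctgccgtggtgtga
GGGCGG, the GC box core, was found 3 times in the Col9a2 stretch and 2 times each in those of Col11a1 and Col11a2, and 35.7% of the 32851 promoters in the table hold it at least once. TATAAA was found once, in Col11a2, against 13.6% of promoters. ACAATG and ACAAAG, letters found in binding sites of SOX proteins, were in none of these stretches, against 12.6% and 18.7% of promoters. Neither Col9a1 start held any of the 4 motifs. None of the motifs overlapped another. Any link between these sequences and the transcript levels was not tested.

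The stage comparison asked how transcript levels differed between E17 and E16. Transcripts of all 6 genes were lower at E17. The difference was largest for Col2a1 and Col9a1, which were at 0.295 and 0.289 of their E16 level, and smallest for Col11a1, at 0.658. By edgeR's quasi-likelihood F test with Benjamini-Hochberg adjustment over all genes, 6 of 6 genes were called lower at an adjusted p under 0.05, where 33.6% of the 14873 genes tested were called lower at E17, 32.2% higher and 65.8% in either direction.

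Col2a1, the main fibril collagen, was at 50.2, 126 and 208 CPM in the lowest, median and highest E17 library, against 159.5, 443 and 889 CPM at E16. The stage groups overlapped in their ranges, but in each of the 10 pairs matched for limb and element the E17 library was the lower. Its log2 fold change was -1.76 ± 0.14 (SE, adjusted p = 1.5e-08).

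Col9a1, which encodes a chain of collagen IX, was at 13.1, 21.3 and 35.6 CPM at E17, against 43.5, 88.2 and 161 CPM at E16. Its highest E17 library lay below its lowest E16 library. Its log2 fold change was -1.79 ± 0.16 (adjusted p = 5.11e-08, lower in 10 of 10 pairs). The share of all genes tested whose groups did not overlap is not given, here or in the comparisons below.

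Col9a2 and Col9a3, the partners of Col9a1 in the collagen IX molecule, differed less between stages. Col9a2 was at 9.41, 21.9 and 62.0 CPM at E17, against 13.8, 42.3 and 122 CPM at E16, a log2 fold change of -0.86 ± 0.15 (adjusted p = 8.39e-05). Col9a3 was at 16.7, 30.1 and 43.9 CPM at E17, against 25.7, 64.9 and 114 CPM at E16, a log2 fold change of -0.93 ± 0.14 (adjusted p = 1.92e-05). Both had overlapping ranges and were lower in 9 of 10 pairs. The exception for both was the forelimb digit 2 proximal phalanx, where Col9a2 was at 44.4 CPM at E17 against 40.9 CPM at E16 and Col9a3 at 36.9 CPM against 31.2 CPM. Col9a3 shares 234 exon bases with Tcfl5 on the opposite strand (GRCm38 annotation), and the libraries do not keep strand. Tcfl5 itself was at 0.247 to 1.47 CPM at E17 and 0.394 to 2.02 CPM at E16.

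Col11a1, with more transcript than Col11a2, was at 69.2, 145 and 310.3 CPM at E17, against 104, 269 and 395 CPM at E16. The ranges overlapped widely, since they span the elements, but the E17 library was the lower in 10 of 10 pairs, with a log2 fold change of -0.60 ± 0.07 (adjusted p = 4.91e-07). Col11a2 was at 8.64, 29.7 and 65.5 CPM at E17, against 11.2, 47.8 and 112 CPM at E16, a log2 fold change of -0.77 ± 0.22 (adjusted p = 0.00529, lower in 8 of 10 pairs). In the forelimb libraries alone the difference of Col11a2 was -0.18 and was not called (adjusted p = 0.31). In the hindlimb libraries alone it was -1.23 (adjusted p = 5.72e-05).

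Summed epidermal markers, 10 keratin and related genes, were at 35540.5 to 57624 CPM (median 41909) in E17 libraries and 11257 to 23860.1 CPM (median 16845) in E16 libraries, with no overlap, and 9 of 10 were called higher at E17. All 8 skeletal muscle markers and all 6 erythroid markers were also called higher at E17. The part of these tissues in the stage difference of the collagens was not tested. Embryos, pool size and count table all changed with stage and cannot be told apart from it, and p-values measure the spread among matched libraries of pooled embryos. Whether elements of a stage were taken from shared embryos is not given in the labels.

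Other genes of the cartilage matrix were lower at E17 as well. Of 15 tested, 12 were called lower and 0 higher, with a median log2 fold change of -0.58, against -0.01 over all genes tested. Over all genes 33.6% were called lower at E17 and 32.2% higher, also for the lists that follow. Acan, the large aggregating proteoglycan of cartilage, was at -1.18 ± 0.17. Col27a1, a fibrillar collagen of cartilage, was at -0.38 ± 0.10. Among 14 regulators and signals of chondrocytes, 12 were called lower and 1 higher. Sox9, Sox5 and Sox6 were all called lower, Sox5 at -1.35 ± 0.18 and Sox6 at -0.47 ± 0.08. Of 9 genes of hypertrophic cartilage and mineralisation, 5 were called higher and 1 lower. Ibsp, a bone matrix sialoprotein, was at 2.45 ± 0.22 and Mmp13, a collagenase that cleaves collagen II, was at 1.42 ± 0.27. Col10a1, the collagen of hypertrophic cartilage, was at -0.00 ± 0.31 and was not called.

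Fibrillar and fibril-associated collagens outside the 6 genes differed less between the stages. Of 14 tested, 7 were called lower and 2 higher at E17, with a median of -0.11. Col1a1, the main collagen of bone and skin, was at -0.32 ± 0.05, and Col5a1 and Col5a2, the collagen V relatives of collagen XI, were at -0.12 ± 0.04 and -0.19 ± 0.04. Col5a3 was called higher, at 1.28 ± 0.16. Among 36 genes that modify, fold, secrete or crosslink collagen, 15 were called lower and 6 higher. For these lists too, the shares over all genes tested were 33.6% lower and 32.2% higher. Creb3l2, a factor that drives secretion genes in chondrocytes, was at -0.86 ± 0.08, and Adamts3, the peptidase that trims collagen II precursors, was at -0.95 ± 0.10. Of 13 genes of collagen and matrix breakdown, 8 were called lower and 3 higher.

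**Figure D2:**
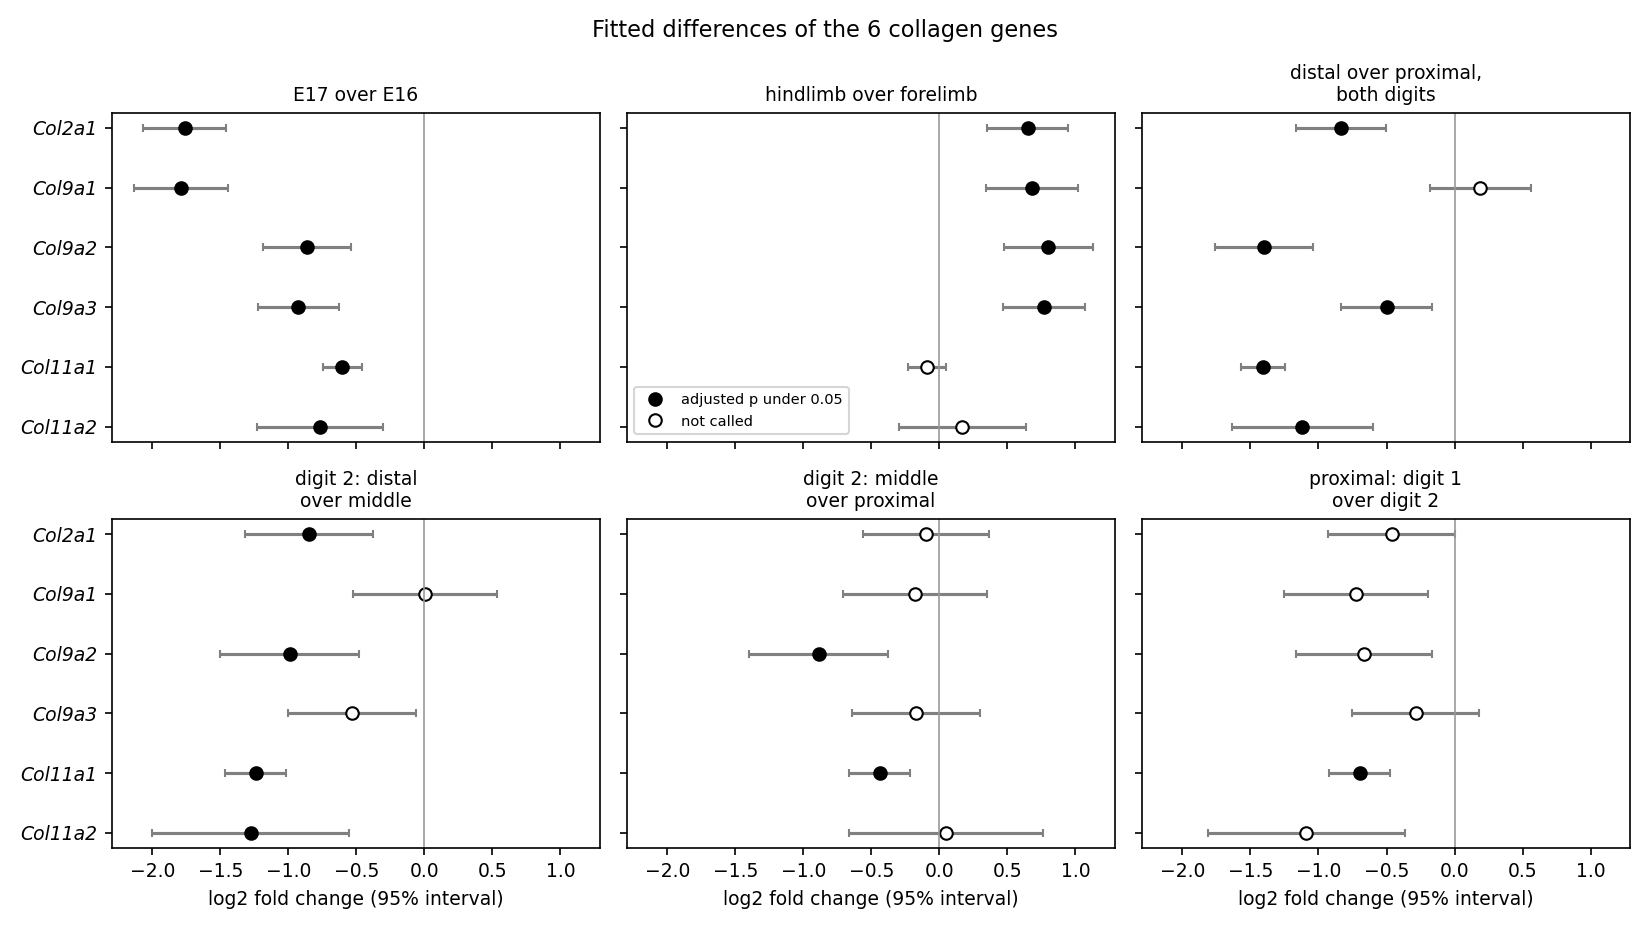
Log2 fold change with its 95% interval for each of the 6 genes in 6 comparisons (x axis, log2 scale), filled where the adjusted p was under 0.05. All 6 genes lie below 0 for E17 over E16, Col2a1 and the Col9 genes lie above 0 for hindlimb over forelimb, and Col9a1 is the gene above 0 for distal over proximal, at 0.19.

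The limb comparison asked how transcript levels in hindlimb phalanges differed from those in forelimb phalanges. Transcripts of collagen II and IX were higher in the hindlimb, at 1.57 to 1.74 times the forelimb level, and neither collagen XI gene passed the test. In all, 4 of 6 genes were called higher, where 9.91% of the 14873 genes tested were called higher and 21.1% were called in either direction.

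Col2a1 was at 117, 325 and 889 CPM in the lowest, median and highest hindlimb library, against 50.2, 167 and 584 CPM in the forelimb, a log2 fold change of 0.65 ± 0.14 (adjusted p = 0.00487). Col9a1 was at 17.7, 58.4 and 161 CPM in the hindlimb, against 13.1, 35.4 and 95.9 CPM in the forelimb, a log2 fold change of 0.68 ± 0.16 (adjusted p = 0.00743). The ranges of the limbs overlapped for both genes, and each was higher in the hindlimb in 9 of 10 matched pairs.

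Col9a2 was at 14.8, 42.3 and 122 CPM in the hindlimb, against 9.41, 22.4 and 50.9 CPM in the forelimb, a log2 fold change of 0.80 ± 0.15 (adjusted p = 0.00207). Col9a3 was at 29.5, 56.6 and 114 CPM in the hindlimb, against 16.7, 30.4 and 60.3 CPM in the forelimb, a log2 fold change of 0.77 ± 0.14 (adjusted p = 0.00171). These too overlapped in range and were higher in the hindlimb in 9 of 10 pairs.

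Col11a1 was at 69.2, 151 and 395 CPM in the hindlimb, against 81.1, 176 and 338 CPM in the forelimb. Its log2 fold change was -0.09 ± 0.07 (95% interval -0.23 to 0.05, adjusted p = 0.342), and it was higher in the hindlimb in 3 of 10 pairs. Col11a2 was at 11.9, 44.7 and 112 CPM in the hindlimb, against 8.64, 36.7 and 104 CPM in the forelimb. Its log2 fold change was 0.17 ± 0.22 (95% interval -0.30 to 0.64, adjusted p = 0.617), and it was higher in the hindlimb in 4 of 10 pairs. The intervals leave room for a rise of Col11a2 close to that of Col2a1, and for Col11a1 they end well below it.

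The limb difference was also taken within each kind of phalanx, as a description. In the middle phalanx of digit 2 Col2a1 was at 150.3 CPM in the E17 hindlimb against 156 CPM in the E17 forelimb, and at 636 CPM in the E16 hindlimb against 584 CPM in the E16 forelimb. The mean log2 difference there was 0.04 for Col2a1, 0.03 for Col9a1, -0.08 for Col9a2 and 0.15 for Col9a3, over 2 pairs. In the distal phalanges the same means were 1.09 for Col2a1, 0.94 for Col9a1, 1.03 for Col9a2 and 1.06 for Col9a3, over 4 pairs. In the proximal phalanges they were 0.54 for Col2a1, 0.79 for Col9a1, 1.04 for Col9a2 and 0.82 for Col9a3, over 4 pairs. Whether the middle phalanx differed from the others in this respect was not tested.

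Within the stages the limb difference of collagen II and IX was called at E16 and not at E17, with estimates in the same direction at both. Each fit had 10 libraries, and the share of all genes called in it is not given. The calls thus do not show that the limb difference changed with stage. In E17 libraries alone the log2 fold changes were 0.40 for Col2a1 (adjusted p = 0.25), 0.41 for Col9a1 (adjusted p = 0.131), 0.54 for Col9a2 (adjusted p = 0.0626) and 0.47 for Col9a3 (adjusted p = 0.107). Col11a1 was called lower in the hindlimb at that stage, at -0.23 (adjusted p = 0.0449). In E16 libraries alone they were 0.90 for Col2a1 (adjusted p = 0.0244), 0.98 for Col9a1 (adjusted p = 0.0291), 1.08 for Col9a2 (adjusted p = 0.0264) and 1.08 for Col9a3 (adjusted p = 0.0203).

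Fitted as an interaction, the stage difference in the hindlimb minus that in the forelimb was negative for all 6 genes and was called for none. It was -0.47 ± 0.26 for Col2a1, -0.51 ± 0.30 for Col9a1, -0.50 ± 0.29 for Col9a2, -0.59 ± 0.25 for Col9a3, -0.29 ± 0.12 for Col11a1 and -1.10 ± 0.36 for Col11a2. Of the 6 genes 0 were called (adjusted p 0.301 to 0.494), where 0% of genes tested were called; 3 had an unadjusted p under 0.05 (Col9a3, Col11a1 and Col11a2), and DESeq2 and limma-voom called 0. Over all genes, edgeR called 0 with 1815 at an unadjusted p under 0.05, DESeq2 called 29 and voom called 0.

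Of 15 cartilage matrix genes outside the 6, 3 were called higher in the hindlimb, 1 lower and 11 in neither direction, with a median of -0.01. Of all genes tested 9.91% were called higher and 11.2% lower in this comparison. Matn1 and Matn3 were higher, at 1.47 ± 0.41 and 1.21 ± 0.28, Comp, a matrix protein of cartilage and tendon, was lower, at -1.32 ± 0.28, and Acan was at -0.20 ± 0.18 and not called. Sox9 was at 0.28 ± 0.11 (adjusted p = 0.0821), Sox5 at -0.08 ± 0.17 and Sox6 at -0.10 ± 0.08, none of them called. Of the other fibrillar and fibril-associated collagens, 8 of 14 were called lower in the hindlimb and 0 higher, among them Col1a1 at -0.59 ± 0.05 and Col5a1 at -0.33 ± 0.04. Summed chondrocyte markers were at 113 to 416 CPM (median 204) in the hindlimb and 101 to 341 CPM (median 163) in the forelimb, with 2 of 8 called higher and 0 lower. Of the 5 osteoblast and bone markers tested, 4 were called lower in the hindlimb, as were 5 of 7 tendon and ligament markers and 3 of 6 Schwann cell markers. Their part in the collagen differences was not tested.

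The position comparison asked how the distal phalanges of both digits differed from the proximal ones. Transcripts of 5 of the 6 genes were lower distally, Col11a1 and Col9a2 most, at 0.377 and 0.379 of their proximal level, and Col9a1 was not called. Of the 14873 genes tested, 23.5% were called lower distally, 23.3% higher and 46.8% in either direction.

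Col2a1 was at 50.2, 139.7 and 445 CPM in the lowest, median and highest distal library, against 116, 287 and 889 CPM in proximal ones, a log2 fold change of -0.83 ± 0.16 (adjusted p = 0.000271, lower in 8 of 8 pairs). The ranges overlapped, with the E16 hindlimb distal libraries above all 4 proximal libraries of E17.

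The collagen IX genes did not follow position alike. Col9a1 was at 21.1, 41.1 and 118 CPM distally, against 13.1, 36.4 and 161 CPM proximally. Its log2 fold change was 0.19 ± 0.18 (95% interval -0.18 to 0.56, adjusted p = 0.406), and it was higher distally in 6 of 8 pairs. Within digit 1 its mean log2 difference was 0.55 ± 0.38 (SD, 4 pairs), and within digit 2 it was -0.12 ± 0.32. Col9a2 was at 9.41, 16.7 and 43.6 CPM distally, against 23.2, 42.7 and 122 CPM proximally, a log2 fold change of -1.40 ± 0.17 (adjusted p = 2.72e-06, lower in 8 of 8 pairs). Col9a3 was at 16.7, 30.6 and 73.9 CPM distally, against 25.9, 40.9 and 114 CPM proximally, a log2 fold change of -0.50 ± 0.16 (adjusted p = 0.0148, lower in 7 of 8 pairs). In E16 libraries alone the difference of Col9a3 was -0.39 and was not called (adjusted p = 0.215).

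Col11a1 was at 69.2, 98.1 and 121 CPM distally, against 134, 269 and 395 CPM proximally. All 8 distal libraries lay below all 8 proximal ones, whatever the stage or limb, and the log2 fold change was -1.41 ± 0.08 (adjusted p = 2.24e-10). Col11a2 was at 8.64, 20.1 and 52.8 CPM distally, against 17.9, 47.8 and 112 CPM proximally, a log2 fold change of -1.12 ± 0.24 (adjusted p = 0.00101, lower in 8 of 8 pairs), with overlapping ranges.

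Of 35 collagen genes outside the 6, 24 were called lower distally and 7 higher, with a median of -0.82. Over all genes tested 23.5% were called lower and 23.3% higher. Of the 14 fibrillar and fibril-associated collagens outside the 6 genes, 13 were called lower and 1 higher, with a median of -0.88, against 0.01 over all genes. Col1a1 was at -1.02 ± 0.05, Col5a1 at -0.83 ± 0.05 and Col27a1 at -0.82 ± 0.11, while Col24a1, a fibrillar collagen of developing bone, was higher at 0.69 ± 0.19. Of 36 genes that modify, fold, secrete or crosslink collagen, 30 were called lower and 0 higher, with Lox, a crosslinking oxidase, at -1.62 ± 0.13. Among 15 other cartilage matrix genes 10 were called lower and 1 higher, with Acan at -0.86 ± 0.19.

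The 14 chondrocyte regulators were divided, with 6 called higher and 6 lower distally, where 23.3% of all genes were called higher and 23.5% lower. Sox5 and Sox6 were lower, at -1.22 ± 0.19 and -0.77 ± 0.09, whereas Sox9 was at 0.21 ± 0.13 and not called (adjusted p = 0.196). Runx2, which directs bone and hypertrophic cartilage formation, was higher at 2.00 ± 0.13. Of 9 genes of hypertrophic cartilage and mineralisation, 5 were called higher and 0 lower, with Sp7, a factor of bone formation, at 3.37 ± 0.20, and Col10a1 at 0.77 ± 0.35 and not called (adjusted p = 0.0848).

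Several tissues differed with position beside the collagens. Summed tendon and ligament markers were at 268 to 423 CPM (median 364) in distal libraries and 539 to 1554 CPM (median 953) in proximal ones, with 6 of 7 called lower. Summed nail and hard keratin markers were at 608 to 8588 CPM (median 4959) distally and 9.62 to 30.1 CPM (median 14.6) proximally, where Krtap3-1 was at 0 throughout. Endothelial markers were called lower distally in 6 of 6, macrophage markers in 6 of 6 and Schwann cell markers in 5 of 6, with 1 higher. Erythroid markers were called higher in 6 of 6 and epidermal markers in 8 of 10. Chondrocyte markers were at 101 to 274 CPM (median 156) distally and 113 to 416 CPM (median 193) proximally, with 4 of 8 called lower. The part of these tissues in the collagen differences was not tested.

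Within digit 2 the distal phalanx was set against the middle one, and 4 of 6 genes were called lower distally, where 16.8% of genes tested were called lower and 33.1% either way. Col11a1 was at 80.5 and 92.0 CPM in the E17 hindlimb and forelimb distal libraries and 121 and 110.4 CPM in the E16 ones, against 168 and 196 CPM in the E17 middle libraries and 296 and 318 CPM in the E16 ones. These groups did not overlap, and the log2 fold change was -1.24 ± 0.11 (adjusted p = 2.21e-07).

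Col2a1 was at -0.85 ± 0.22 between the same phalanges (adjusted p = 0.00681), Col9a2 at -0.99 ± 0.24 (adjusted p = 0.00418) and Col11a2 at -1.28 ± 0.34 (adjusted p = 0.00802), each lower distally in 4 of 4 pairs. Col9a3 was at -0.53 ± 0.22 and was not called (adjusted p = 0.0795), though DESeq2 called it. Col9a1 was at 0.01 ± 0.25 (95% interval -0.52 to 0.53, adjusted p = 0.989). In E16 libraries alone 2 of the 6 were called, Col2a1 and Col11a1. In E17 libraries alone 3 were called, without Col2a1 (-0.62, adjusted p = 0.152), and in hindlimb libraries alone 3, without Col9a2 (-0.34, adjusted p = 0.0658). These fits had 10 libraries each. The share of all genes called in them is not given, so a change in power cannot be told apart.

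Between the middle and the proximal phalanx of digit 2, 2 of 6 genes were called lower in the middle phalanx, where 1.93% of genes tested were called lower and 3.78% either way. Col9a2 was at 22.4 and 21.5 CPM in the E17 hindlimb and forelimb middle libraries and 43.9 and 50.9 CPM in the E16 ones, against 62.0 and 44.4 CPM in the E17 proximal libraries and 122 and 40.9 CPM in the E16 ones. The groups overlapped through the E16 forelimb, the only pair in which the middle phalanx was higher. Its log2 fold change was -0.89 ± 0.24 (adjusted p = 0.048), and that of Col11a1 was -0.44 ± 0.11 (adjusted p = 0.0252, lower in 4 of 4 pairs). When each library was left out in turn 0 to 2 genes were called, and Col9a2 lost its call in 15 of 20 omissions and Col11a1 in 6 of 20.

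Col2a1, Col9a1, Col9a3 and Col11a2 were at -0.10 ± 0.22, -0.18 ± 0.25, -0.17 ± 0.22 and 0.05 ± 0.34 between the middle and proximal phalanges, none called. The 95% interval of Col11a2 was -0.66 to 0.76, which leaves room for sizeable differences either way.

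The digit comparisons set digit 1 against digit 2. Between the distal phalanges 0 of 6 genes were called by edgeR (1 at an unadjusted p under 0.05, and 0 by DESeq2 and voom), where 1.49% of genes tested were called. Between the proximal phalanges 1 of 6 was called lower in digit 1, where 0.403% of genes were called lower and 1.22% either way. That gene was Col11a1, at 134 and 155 CPM in the E17 hindlimb and forelimb libraries of digit 1 and 263 and 275 CPM in the E16 ones, against 249.5 and 310.3 CPM in the E17 libraries of digit 2 and 395 and 338 CPM in the E16 ones. It was lower in digit 1 in 4 of 4 pairs, with overlapping ranges, and its log2 fold change was -0.70 ± 0.11 (adjusted p = 0.00414). Between the same phalanges 8 of 8 skeletal muscle markers were called higher in digit 1 (median log2 fold change 3.61), where 0.814% of genes were called higher. Of 7 tendon and ligament markers 4 were called lower (median -0.77). Summed muscle markers were at 23.3 to 2376 CPM in digit 1 and 8.67 to 35.7 CPM in digit 2. The highest sum was in the E17 forelimb, and no hindlimb library of any element exceeded 255 CPM. The part of these tissues in the difference of Col11a1 was not tested.

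Col11a2 was at 17.9 and 30.5 CPM in the E17 hindlimb and forelimb proximal libraries of digit 1 and 42.7 and 42.9 CPM in the E16 ones, against 53.0 and 62.8 CPM in the E17 libraries of digit 2 and 112 and 52.8 CPM in the E16 ones. These groups did not overlap, yet its log2 fold change of -1.09 ± 0.34 was not called (adjusted p = 0.163). Against the middle phalanx of digit 2 the proximal phalanx of digit 1 gave 0 calls of 6 (3 at an unadjusted p under 0.05, and 0 by DESeq2 and voom), where 1.85% of genes were called. There Col11a2 was at -1.14 ± 0.34 (adjusted p = 0.108), again without overlap, since the middle libraries held 46.8 to 104 CPM.

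The difference between distal and proximal phalanges was not called as differing by stage or by limb for any of the 6 genes. Of the genes tested 0.215% were called for stage by position (0.0807% with a positive and 0.134% with a negative estimate) and 1.72% for limb by position (0.793% and 0.928%). The lowest unadjusted p among the 6 was that of Col2a1 in limb by position, 0.0274, with an estimate of 0.55 ± 0.22 (95% interval 0.07 to 1.02, adjusted p = 0.213). At an unadjusted p under 0.05 the counts were 0 and 1 of 6, and DESeq2 and voom called 0 in both.

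Ratios between chains that assemble together were then taken within each library, which removes the scaling of the library. In bulk libraries such a ratio also takes in transcripts from tissues other than cartilage. The part of these tissues in the ratios was not tested. An exact two-sided sign-flip permutation test over matched pairs was used, with Benjamini-Hochberg adjustment over 18 tests (6 ratios in 3 comparisons), and 10 of the 18 were called. With 10 pairs the smallest p this test can give is 0.00195, and with 8 pairs it is 0.00781.

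The ratio of Col11a1 to Col2a1, per length, averaged 0.773 (range 0.384 to 1.18) in E17 libraries and 0.354 (range 0.171 to 0.616) in E16 libraries. It was 2.22 times as high at E17 (mean log2 difference 1.15 ± 0.20, SD) and higher in 10 of 10 pairs (permutation adjusted p = 0.00703). The same ratio averaged 0.434 in the hindlimb and 0.693 in the forelimb, lower in the hindlimb in 10 of 10 pairs (mean log2 difference -0.75 ± 0.47, permutation adjusted p = 0.00703). It averaged 0.473 distally and 0.653 proximally, and was lower distally in 7 of 8 pairs (-0.55 ± 0.42, permutation adjusted p = 0.0422), a call lost in 14 of 20 omissions of 1 library.

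Col11a2 differed in the same direction as Col11a1 relative to Col2a1. Its ratio to Col2a1, per length, averaged 0.210 in E17 libraries and 0.0969 in E16 libraries, higher at E17 in 10 of 10 pairs (mean log2 difference 1.03 ± 0.46, permutation adjusted p = 0.00703). In the hindlimb it was lower in 9 of 10 pairs (-0.47 ± 0.44, permutation adjusted p = 0.0195), and by position it was not called (-0.34 ± 0.32, permutation adjusted p = 0.0511). The ratio of Col11a1 to Col11a2 averaged 4.09 at E17 and 3.86 at E16 and was called in none of the 3 comparisons, with permutation adjusted p of 0.374 to 0.54. Between libraries it ran over 1.81 to 7.41, so the absence of a call does not show a fixed ratio.

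Within collagen IX the chains parted. The ratio of Col9a1 to Col9a2, per length, averaged 0.920 (range 0.330 to 1.74) in E17 libraries and 1.57 (range 0.796 to 2.57) in E16 libraries, lower at E17 in 10 of 10 pairs (mean log2 difference -0.93 ± 0.42, permutation adjusted p = 0.00703). By position it averaged 1.88 (range 1.35 to 2.57) in distal libraries and 0.670 (range 0.330 to 1.15) in proximal ones. The distal and proximal libraries did not overlap, and the ratio was 3.04 times as high distally in the mean of 8 pairs (permutation adjusted p = 0.0176). By limb it was not called (-0.11 ± 0.28, permutation adjusted p = 0.306).

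Col9a1 over Col9a3 differed in the same directions, lower at E17 in 10 of 10 pairs (-0.86 ± 0.34, permutation adjusted p = 0.00703) and higher distally in 8 of 8 pairs (0.69 ± 0.39, permutation adjusted p = 0.0176). The ratio of Col9a2 to Col9a3 averaged 0.873 at E17 and 0.825 at E16 and was not called by stage (0.07 ± 0.24, permutation adjusted p = 0.404) or by limb (0.03 ± 0.33, permutation adjusted p = 0.766). It averaged 0.598 (range 0.504 to 0.657) in distal libraries and 1.14 (range 0.727 to 1.47) in proximal ones, with no overlap and lower distally in 8 of 8 pairs (-0.91 ± 0.41, permutation adjusted p = 0.0176).

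**Figure D3:**
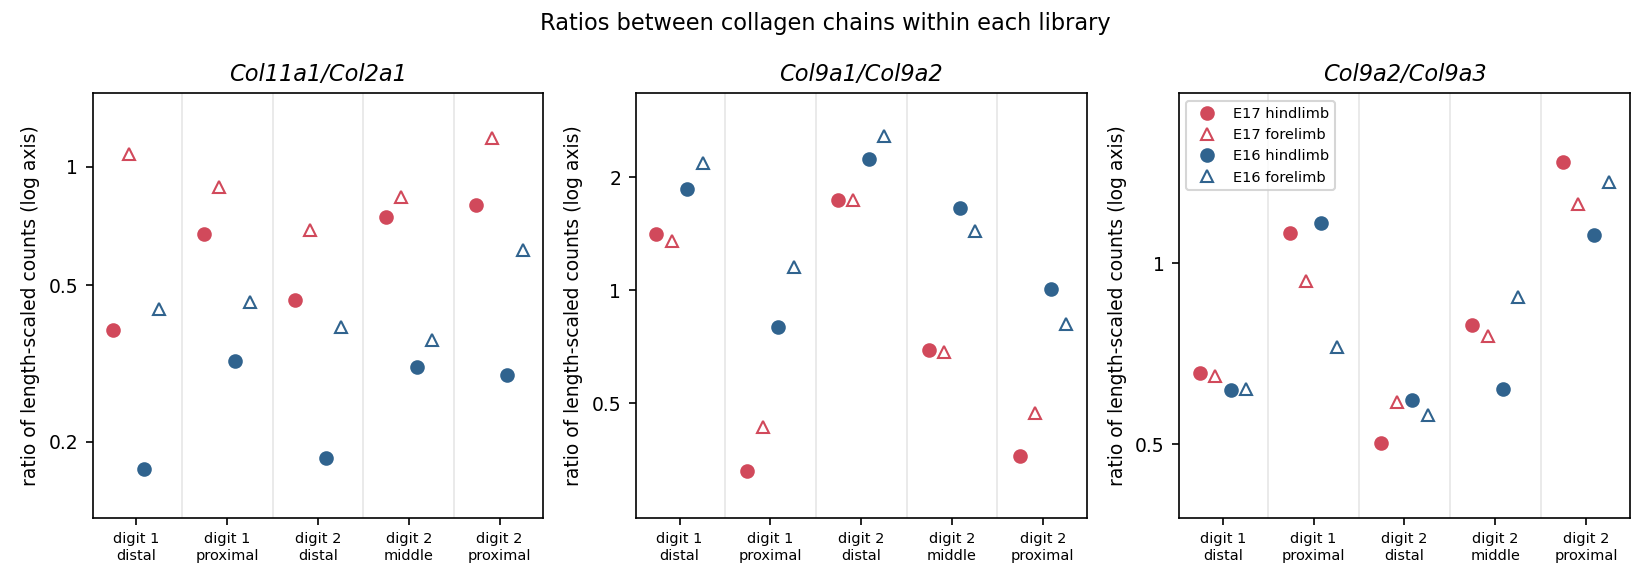
Ratio of length-scaled counts of 2 chains within each library (log axis), by element, for Col11a1 over Col2a1, Col9a1 over Col9a2 and Col9a2 over Col9a3; red marks E17 and blue E16, filled circles hindlimb and open triangles forelimb. The first ratio is higher at E17 in 10 of 10 pairs. The other ratios set distal libraries apart from proximal ones, at 1.35 to 2.57 for Col9a1 over Col9a2 and 0.504 to 0.657 for Col9a2 over Col9a3. Digit 2 middle libraries of E16 reach into these distal ranges. Col9a1 over Col9a2 is at 1.65 (hindlimb) and 1.44 (forelimb) there, and Col9a2 over Col9a3 is at 0.617 (hindlimb).

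Splitting the spread of log2 CPM (as sums of squares) by element, stage and limb gave each gene its own profile. For Col2a1 element held 18.3%, stage 65.2% and limb 9.23%, and for Col9a1 these were 4.997%, 73.2% and 11.5%. For Col9a2 they were 50.3%, 19.7% and 18.9%, and for Col9a3 11.8%, 40.5% and 30.3%. For Col11a1 element held 82.1%, stage 14.8% and limb 0.306%, and for Col11a2 67.7%, 12.5% and 0.830%. The medians over all genes tested were 24.2%, 27.2% and 4.23%, so element held more than the median gene's share in Col9a2 and the collagen XI genes, and less in Col2a1, Col9a1 and Col9a3.

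**Figure D4:**
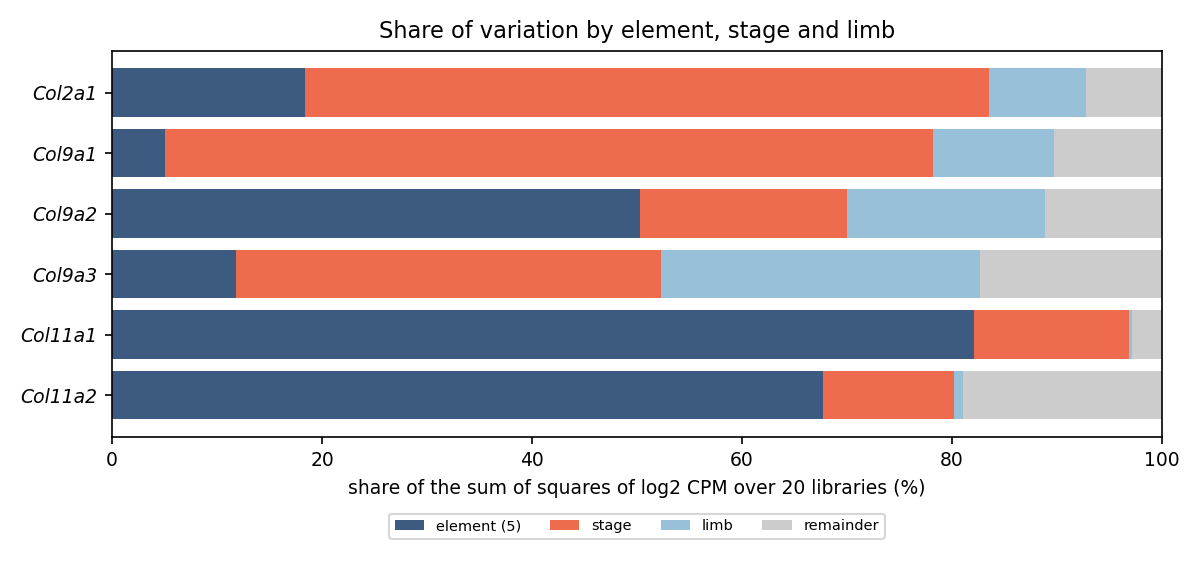
Share of the spread in log2 CPM over 20 libraries (x axis, percent of the sum of squares) that fell to element, stage, limb and the remainder, for each of the 6 genes. Stage is the widest segment for Col2a1 (65.2%), Col9a1 (73.2%) and Col9a3 (40.5%), and element for Col9a2 (50.3%), Col11a1 (82.1%) and Col11a2 (67.7%).

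Correlations between the 6 genes are given as a description, with no value for other gene pairs beside them. Over 20 libraries, which share scaling, stage and element, Pearson's r of log2 CPM between pairs of the 6 ran from 0.34 (Col9a1 with Col11a1) to 0.91 (Col2a1 with Col9a3), with a median of 0.75 over 15 pairs. With element, stage and limb effects removed it ran from 0.51 to 0.88, with a median of 0.73, and the pair of Col9a1 with Col11a1 was at 0.80. In 4 libraries all 6 genes lay above the additive fit (the E17 forelimb digit 2 proximal, E16 forelimb digit 2 middle, E16 hindlimb digit 2 distal and E16 hindlimb digit 2 proximal phalanges). In another 4 all 6 lay below it (the E17 hindlimb digit 2 middle, E16 forelimb digit 1 distal, E16 forelimb digit 2 distal and E16 forelimb digit 2 proximal phalanges). Deviations ran from -0.26 to 0.22 for Col11a1 and from -0.65 to 0.98 for Col11a2, whose highest was in the E16 hindlimb digit 1 distal phalanx.

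**Figure D5:**
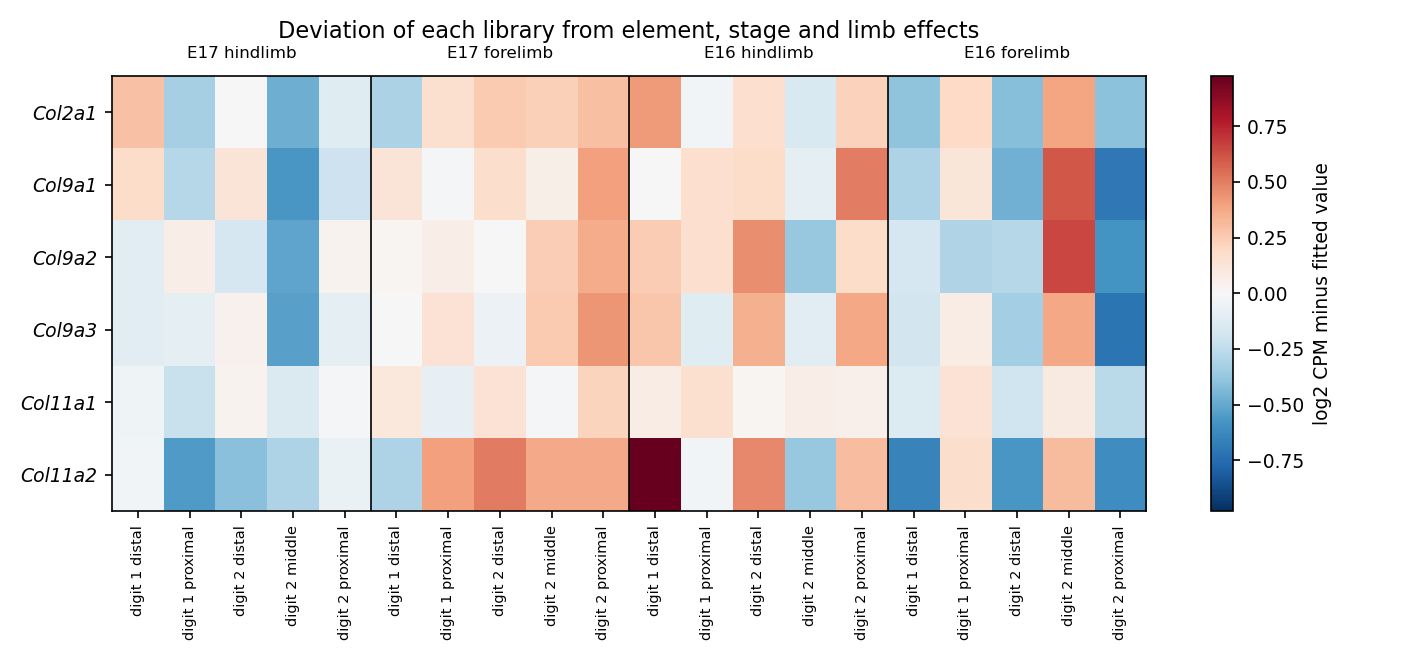
Log2 CPM of each gene (rows) in each library (columns, E17 hindlimb, E17 forelimb, E16 hindlimb and E16 forelimb) minus the value fitted from element, stage and limb; red is above and blue below. Whole columns share a colour, as in the E17 hindlimb digit 2 middle phalanx (all 6 below), and the widest range is that of Col11a2, at -0.65 to 0.98.

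Over the 20 libraries the genes most like the mean standardised profile of the 6 were Snd1 (Pearson's r of log2 CPM 0.94), Samd14 (0.94), Lmf2 (0.93), Ephb4 (0.93), Plbd2 (0.92), Ntn3 (0.92), Cul7 (0.92) and Chadl (0.91). For Col2a1 alone they were Ntn3, Chadl and Acsf2, each at 0.96, and for Col11a1 alone Colgalt1 (0.96), Itga9 (0.95) and Eng (0.95). Sox9 was at 0.81 with Col2a1 and 0.30 with Col11a1, and Sox6 was at 0.70 with Col2a1 and 0.89 with Col11a1. Sox5 was at 0.81 with Col2a1 and 0.81 with Col11a1. Acan was at 0.86 with Col2a1 and 0.82 with Col11a1, and Matn1 was at 0.80 and 0.45. These correlations are descriptions over libraries that share scaling, stage and element.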

How the data were processed

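Bulk RNA sequencing was done on 20 libraries of phalanges from pooled mouse embryos, and every condition had 1 library. The authors deposited raw counts per gene, in a table for each stage. Reads were aligned to GRCm39 with HISAT2 2.2.1 and assembled with StringTie 2.1.7, per the submitters' processing notes; the counting step, annotation release and filters are not given in the sources used here. Per the labels' protocols, the NEBNext Ultra RNA kit and paired-end Illumina sequencing were used.

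The tables (28766 rows at E17 and 27527 at E16) were joined by gene symbol, 23932 alike and 59 by synonym, holding 99.04% to 99.49% of each library's counts. Genes with at least 1 CPM in at least 4 libraries were tested with edgeR 4.0.16 (R 4.3.3), in quasi-likelihood fits of element, stage and limb over the 20 libraries, with trimmed mean of M values factors of 0.903 to 1.05. The additive fit had 13 residual degrees of freedom, so that libraries matched on the other factors served as replicates. Adjusted p-values are Benjamini-Hochberg values over all genes tested, called under 0.05, and ± after a log2 fold change is its SE. Log2 CPM used a prior count of 2, and chain ratios a pseudocount of 0.5. The common biological coefficient of variation was 18.5%. Lengths and overlaps came from GENCODE annotation of GRCm38, a build other than the authors', and promoters from RefSeq. DESeq2 1.42.0 and limma-voom (limma 3.58.1), other scalings and filters, single stages and limbs, and omission of each library were alternatives. The edgeR code was also run on simulated data with known stage changes. Those data had a common dispersion and no element or limb effects, and the outcome is not given here. Named genes were the 6 genes, the 2 highest and 2 lowest called genes of each list, a fixed set of cartilage and collagen genes, and those with the most similar profiles. The 6 genes and all lists were chosen with earlier results of these data known.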

Additional observations from a re-analysis of the deposited data

Results flagged for a closer look

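Of 42 tests for a sample far from the others of its group, 3 were positive, where chance gives about 1 in 20. Col9a1 in the E16 forelimb digit 2 middle phalanx was at 95.9 CPM, above the other 9 forelimb libraries, the next of which held 53.2 CPM. Col9a1 in the E16 hindlimb digit 2 proximal phalanx was at 161 CPM, above the other 7 proximal libraries, the next of which held 81.2 CPM. Col9a3 in the same library was at 114 CPM, above the other 9 hindlimb libraries, the next of which held 74.1 CPM. These groups mix stages, and in all 3 the E16 libraries lie above the E17 ones. All 6 collagen genes lay above the additive fit in both libraries. The limb calls of Col9a1 and Col9a3, and the absence of a position call for Col9a1, held without each of these libraries.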

How the results depend on the processing

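No comparison of the 6 genes changed direction while called. With DESeq2, limma-voom, other scalings or other filters, the stage, limb and position counts stayed at 6, 4 and 5, as they did when each library was left out in turn. In forelimb libraries alone the stage difference of Col11a2 was -0.18 and was not called. In E17 libraries alone 1 gene was called by limb, and the limb differences were 0.40 for Col2a1, 0.41 for Col9a1, 0.54 for Col9a2, 0.47 for Col9a3 and -0.23 for Col11a1, the last newly called. In E16 libraries alone the position difference of Col9a3 was -0.39, not called. Each of these fits had 10 libraries, and the share of all genes called in them is not given beside these results.

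Counts of genes called in the smaller contrasts moved. The share of all genes called in each of these fits is not given, so a change in power cannot be told apart. Digit 2 distal against middle gave 2 in E16 libraries alone and 3 in E17 or hindlimb libraries alone. Digit 2 middle against proximal gave 1 without a filter, 0 in E16 or forelimb libraries alone and 4 in hindlimb libraries alone. Digit 1 against digit 2 gave 1 for distal phalanges in forelimb libraries alone, and for proximal phalanges 0 in E16 or forelimb libraries alone and 3 in hindlimb libraries alone. Digit 1 proximal against digit 2 middle gave 1 in forelimb and in hindlimb libraries alone.

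Leaving out each library gave 4 to 5 genes for digit 2 distal against middle and 0 to 2 for digit 2 middle against proximal. The 0 came without the E17 hindlimb or forelimb middle or proximal library of digit 2, or without the E16 hindlimb proximal one, and the count differed from 2 in 16 of 20 omissions. It gave 0 to 1 for the distal phalanges of digit 1 against digit 2 and for digit 1 proximal against digit 2 middle, the 1 in both without the E16 hindlimb digit 1 distal library, and 0 to 1 for stage by limb, the 1 (Col9a2, -0.82, adjusted p = 0.0499) without the E16 forelimb digit 2 middle library. Of the 18 chain ratio tests 9 to 10 were called. The cause of these changes was not tested. Libraries carry no replicate number beyond stage, limb and element, on which both the additive fit and the paired ratio tests match them. With 1 library per combination, an interval includes any departure from additivity.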
